A study of Mus musculus with 6 samples.

Results

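Scavenger receptors are described here by 10 genes, Cd163, Mrc1, Msr1, Marco, Cd36, Scarb1, Scarb2, Colec12, Cd5l and Olr1, which were chosen by gene symbol from the 26110 genes of the deposited table. RNA had been measured by bulk RNA-seq in MHCIIhi cells of the muscularis externa (ME), the muscle wall of the gut, taken from the small bowel of untreated mice. The cells had been sorted into CX3CR1- and CX3CR1+ populations, with 3 libraries each. All mice carried the genotype CX3CR1+/GFP, in which one copy of the fractalkine receptor gene is replaced by a green fluorescent reporter, so that both populations lacked one functional copy of Cx3cr1. Tissue of several mice was pooled for each population, and whether each library came from its own pool is not stated. A p-value therefore measures only the spread between these libraries. The labels call the cells dendritic cells and the study calls them macrophages.

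Scavenger receptors are surface or lysosomal proteins that bind a wide range of charged or modified ligands, such as oxidized lipoproteins, bacterial wall components and cell debris. Macrophages use them to clear such material from tissue, and several of them serve as common markers of resident macrophages. The ME holds resident macrophages around the nerve cells of the myenteric plexus and between the muscle layers.

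The values are signal normalized between libraries, and values in each population are given in the order of replicates 1, 2 and 3. The libraries held about 5346381 to 17616764 reads by the smallest step of their values, and 3 reads corresponded to between 1.39 and 5.36 normalized units. As a check of the sort, Cx3cr1 was at 23.2, 18.9 and 28.5 in CX3CR1- and at 371, 380 and 347 in CX3CR1+ libraries. The 12 macrophage core genes, among them Csf1r and C1qa, include Cx3cr1 itself, whose lower call follows from the sort. All 12 were called lower in CX3CR1- cells, whereas 8.15% of all tested genes were. Their summed level was 8803 to 10556 against 45140 to 51199. Of 11 genes of conventional dendritic cells, 9 were called higher in CX3CR1- cells, whereas 12.2% of all tested genes were. The summed level of this list was 4734 to 5237 against 1228 to 1318. Its 2 genes that were not called differed in direction. Batf3 was higher in every CX3CR1- library, whereas Irf8 was lower in each, at 690, 875 and 857 against 905, 956 and 953. No marker of either list was at or under 3 reads in every library of a population, and the cells are called here by their sort. Genes encoded in mitochondria accounted for 51.7 ± 3.76% (SD, n = 3) of all signal in CX3CR1- libraries, against 19.6 ± 1.55% (SD, n = 3) in the CX3CR1+ ones.

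Mrc1 and Cd163 are the members most often used to mark resident macrophages, and the sequences before their start sites are shown because both genes were lower in CX3CR1- cells. The sequences are from RefSeq on GRCm38.p6, on the plus strand, and stop before the first annotated exon. Windows of 300 bases around the start site were found for 7 of the 10 members. Msr1, Scarb1 and Colec12 had no entry. Capitals mark matches to GAGGAA, the core recognized by the myeloid factor PU.1, or to TGCTGA, a half-site of the Maf factors, on either strand. The motifs do not overlap each other in these sequences.
Mrc1 chr2:14229164-14229391: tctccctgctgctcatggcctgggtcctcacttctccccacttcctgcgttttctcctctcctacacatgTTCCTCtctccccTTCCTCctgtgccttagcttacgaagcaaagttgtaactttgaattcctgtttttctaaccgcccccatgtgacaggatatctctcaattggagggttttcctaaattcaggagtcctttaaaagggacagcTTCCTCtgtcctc
Cd163 chr6:124304401-124304650: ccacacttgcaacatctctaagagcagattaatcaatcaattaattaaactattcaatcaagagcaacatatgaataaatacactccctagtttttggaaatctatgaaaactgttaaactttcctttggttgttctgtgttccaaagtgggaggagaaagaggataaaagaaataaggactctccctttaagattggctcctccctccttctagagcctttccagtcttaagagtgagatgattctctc
The Mrc1 sequence held 3 matches to the PU.1 core, all on the opposite strand and so printed as TTCCTC. They began 180, 167 and 35 bases before the RefSeq start. The Cd163 sequence held no match to either motif. The PU.1 core occurred in 4 of the 7 member windows (Mrc1, Marco, Cd5l and Olr1) and in 28.3% of all 32851 windows. The Maf half-site occurred in 3 of the 7 (Cd36, Scarb2 and Cd5l) and in 19.5% of all windows. A match of this kind is a description of the letters only.

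Mrc1, Cd163, Msr1 and Cd36 had lower levels in CX3CR1- cells than in their CX3CR1+ counterparts, by 2.13-fold for Cd36 to 14.1-fold for Msr1. Colec12 was 2.53-fold higher in CX3CR1- cells by a call that depended on the processing. Scarb1, Scarb2 and Olr1 did not pass the test, and Marco and Cd5l were too low to be tested. A gene entered the test when its mean over all 6 libraries reached 10. It was called when its log2 fold change reached 1 in either direction with an adjusted p of 0.05 or less (limma, Benjamini-Hochberg over 17812 genes). Of the 10 members, 8 were tested, of which 4 were called lower and 1 was called higher, whereas 20.4% of all tested genes were called, 8.15% lower and 12.2% higher. Among the 8 tested members, the values of the populations did not overlap for 5 that were lower and 2 that were higher in CX3CR1- libraries, against 19.8% and 20.3% of all tested genes and 40.0% in either direction. The median log2 fold change was -0.68 over the 8 tested members and -0.00 over all tested genes. These libraries are bulk samples, in which fewer cells of a type and less RNA per cell cannot be told apart.

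**Figure D1:**
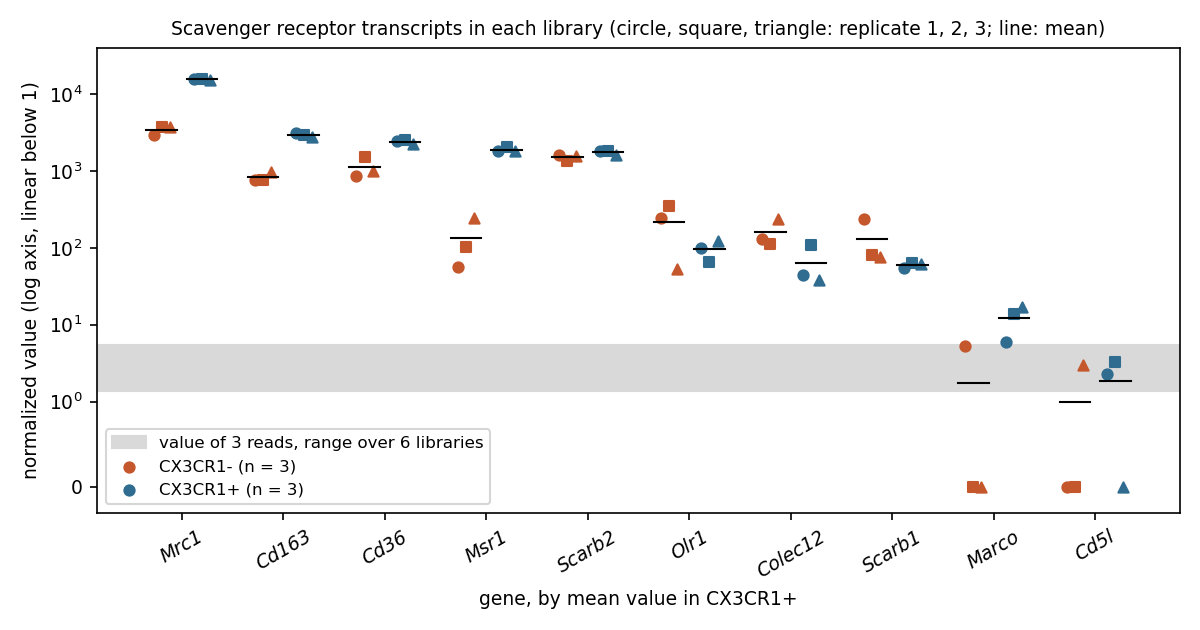
Normalized value of the 10 scavenger receptor genes in each library, on a log axis that is linear below 1, with 3 CX3CR1- libraries in orange and 3 CX3CR1+ libraries in blue (circle, square and triangle for replicates 1, 2 and 3, line for the mean). Mrc1, Cd163, Cd36 and Msr1 were lower in every CX3CR1- library, Olr1 overlapped, and Marco and Cd5l lay near the grey band of 1.39 to 5.36 that marks 3 reads.

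Mrc1 (chr2:14229392-14332057, plus strand, GRCm38) encodes the mannose receptor CD206, an endocytic lectin for glycoproteins that end in mannose. It was at 2932, 3690 and 3693 in CX3CR1- and at 15485, 15884 and 15078 in CX3CR1+ libraries. The populations were far apart, and the highest CX3CR1- library was well under the lowest CX3CR1+ library. The means were 3438 ± 438 (SD, n = 3) and 15482 ± 403 (SD, n = 3), a 4.50-fold difference. The log2 fold change was -2.18 with a standard error of 0.14 (limma adjusted p = 5.62e-06). Over the 16 alternative settings it stayed between -2.23 and -1.89. Mrc1 was also the most even member in CX3CR1+ cells, with a coefficient of variation of 2.60%, against 12.7% in CX3CR1- cells.

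Cd163 (chr6:124304656-124330527, plus strand) encodes the receptor through which macrophages take up complexes of haemoglobin and haptoglobin. Its values were 758, 762 and 975 in CX3CR1- and 3140, 2902 and 2741 in CX3CR1+ libraries. No CX3CR1- library came near the CX3CR1+ range. The means of 832 ± 124 (SD, n = 3) and 2928 ± 200 (SD, n = 3) differed 3.52-fold, with a log2 fold change of -1.82 (standard error 0.16, limma adjusted p = 3.37e-05). The ratio of Mrc1 to Cd163 within a library, which does not depend on the scaling between libraries, was 4.14 in CX3CR1- and 5.30 in CX3CR1+ cells as a geometric mean. On the log2 scale this ratio was 2.05 ± 0.20 (SD, n = 3) and 2.40 ± 0.09 (SD, n = 3). The ratio did not overlap between the populations, and the exact two-sided permutation p was 0.1, the smallest that 3 libraries against 3 allow. Mrc1 was thus lower in proportion to Cd163 in every CX3CR1- library. Replicate 2 of CX3CR1-, with a log2 ratio of 2.27, came close to replicate 1 of CX3CR1+, with 2.30.

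Of the 10 tested genes of a list for the route of haemoglobin and haem, 6 were called lower in CX3CR1- cells and none was called higher. Of all tested genes, 8.15% were called lower. The median log2 fold change of the list was -1.33. The list also held Adam17 and Csnk2b, which are not haem genes. Fth1 and Ftl1, the subunits of the iron store ferritin, had log2 fold changes of -1.52 and -1.39. Blvrb, a biliverdin reductase, had one of -2.01, and Hmox1, the enzyme that opens the haem ring, had one of -1.71. The list thus held no gene that was called in the opposite direction to Cd163. Lrp1, which takes up haem bound to hemopexin, did not pass the test (log2 fold change 0.26). Adam17, a protease that sheds CD163 from the surface, was among the 6 called lower, with a log2 fold change of -1.64. Csnk2b did not pass the test (log2 fold change 0.61).

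Msr1 (chr8:39581685-39642673, minus strand) encodes the class A scavenger receptor for modified lipoproteins and bacterial ligands. It was at 57.0, 101 and 246 in CX3CR1- and at 1841, 2032 and 1822 in CX3CR1+ libraries. Msr1 thus had the widest gap of the tested members, and the CX3CR1- libraries themselves differed, with a highest value 4.32 times the lowest. The means of 135 ± 99.1 (SD, n = 3) and 1898 ± 116 (SD, n = 3) differed 14.1-fold. The log2 fold change was -4.06 with a standard error of 0.42 (limma adjusted p = 8.51e-05), and it lay between -4.62 and -3.58 over the 16 alternative settings. Replicate 3, the CX3CR1- library with the highest Msr1, also had the highest Cd163.

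Marco (chr1:120474538-120505024, minus strand) encodes a second collagen-like receptor of the same class, which binds bacteria and inhaled particles on some tissue macrophages. It was at 5.22, 0 and 0 in CX3CR1- and at 6.01, 13.9 and 17.0 in CX3CR1+ libraries. These values stand for about 5, 0 and 0 reads against about 13, 17 and 12 reads. The populations did not overlap, but the gap between the closest libraries was small. With a mean of 7.03 over all libraries Marco was not tested. Without the filter on low values its log2 fold change was -2.75 with an adjusted p of 0.0534 (limma).

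Colec12 encodes a class A scavenger receptor with a C-type lectin domain, known from endothelial and stromal cells. It was at 131, 113 and 238 in CX3CR1- and at 43.9, 108 and 38.2 in CX3CR1+ libraries. All CX3CR1- libraries were higher, but replicate 2 of CX3CR1+ came close to replicate 2 of CX3CR1-. The means were 161 ± 67.8 (SD, n = 3) and 63.5 ± 38.9 (SD, n = 3), a 2.53-fold difference with a log2 fold change of 1.41 (standard error 0.43, limma adjusted p = 0.0388). The call held under 9 of the 16 alternative settings, with adjusted p-values of 0.0111 to 0.151 (limma). It was lost without replicate 1 or 3 of CX3CR1- (adjusted p = 0.0734 and 0.137, limma) and without replicate 1 or 3 of CX3CR1+ (adjusted p = 0.136 and 0.151, limma). Of the 31-base words of Colec12, 7.77% also occur in another gene, mainly Ccdc82, against less than 1% for each other member.

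The marker list of fibroblasts differed between the populations in the same direction as Colec12. All 8 of its genes were called higher in CX3CR1- cells, against 12.2% of all tested genes. Its summed level was 7810, 4427 and 13388 in CX3CR1- against 327, 253 and 193 in CX3CR1+ libraries. Replicate 3 was the highest of the CX3CR1- libraries for both Colec12 and the fibroblast list, whereas among CX3CR1+ libraries Colec12 was highest in replicate 2 and the fibroblast list in replicate 1. Of 8 blood endothelial genes, 6 were called higher, with sums of 899 to 1215 against 351 to 613, and Tek was at or under 3 reads in every CX3CR1+ library. Of 5 tested lymphatic endothelial genes, 4 were called higher and 1 lower. The part of these cells in the Colec12 level was not tested.

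**Figure D2:**
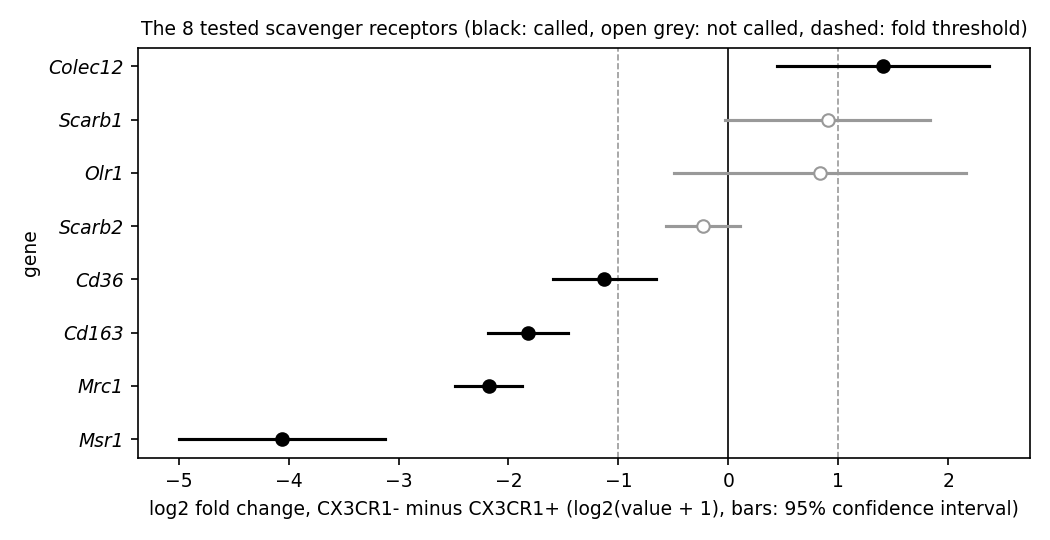
Log2 fold change of the 8 tested members, CX3CR1- minus CX3CR1+, on the log2(value + 1) scale with its 95% confidence interval from limma. Black points passed the test, from -4.06 for Msr1 to 1.41 for Colec12, and open grey points (Scarb2, Olr1 and Scarb1) did not.

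Cd36 (chr5:17781690-17888801, minus strand) encodes a class B receptor for long-chain fatty acids and oxidized lipoproteins. It was at 869, 1519 and 1003 in CX3CR1- and at 2425, 2560 and 2224 in CX3CR1+ libraries. Each CX3CR1- library was lower than each CX3CR1+ library, with replicate 2 the highest of the CX3CR1- libraries. The means were 1130 ± 343 (SD, n = 3) and 2403 ± 169 (SD, n = 3), a 2.13-fold difference. The log2 fold change of -1.13 had a standard error of 0.21 (limma adjusted p = 0.00309). It lay close to the fold threshold, and it was -0.74 after quantile normalization, -0.95 after scaling to an equal sum without mitochondrial genes and -0.96 without replicate 1 of CX3CR1-. In these 3 settings the adjusted p stayed at or under 0.0217 (limma) while the fold threshold was missed.

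Scarb1 (chr5:125277087-125341094, minus strand) encodes the receptor that takes cholesteryl esters from high-density lipoprotein. It was at 234, 80.4 and 76.1 in CX3CR1- and at 54.4, 63.7 and 61.8 in CX3CR1+ libraries. All 3 CX3CR1- libraries were higher, but only replicate 1 was far above the others. The means of 130 ± 90.0 (SD, n = 3) and 60.0 ± 4.94 (SD, n = 3) gave a log2 fold change of 0.90 with a 95% interval of -0.03 to 1.84, which did not pass the test (limma adjusted p = 0.153). Without replicate 1 of CX3CR1- the log2 fold change was 0.38.

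Scarb2 (chr5:92441314-92506833, minus strand) encodes LIMP-2, a lysosomal membrane protein that carries glucocerebrosidase to lysosomes. Its values were 1597, 1335 and 1564 in CX3CR1- and 1814, 1833 and 1625 in CX3CR1+ libraries. The CX3CR1- libraries were all lower, but the highest of them was close to the lowest CX3CR1+ library. The means were 1499 ± 142 (SD, n = 3) and 1757 ± 115 (SD, n = 3). The log2 fold change was -0.23 with a 95% interval of -0.57 to 0.11 (limma adjusted p = 0.312), so that a change as large as the fold threshold lay outside the interval. Its sign turned after quantile normalization, to 0.17. Among the 5 members with the highest means in CX3CR1+ libraries, Scarb2 had the smallest difference.

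Within a library, the class B members were present in different proportions in the populations. The log2 ratio of Cd36 to Scarb1 was 3.28 ± 1.23 (SD, n = 3) in CX3CR1- cells against 5.33 ± 0.15 (SD, n = 3) in CX3CR1+ cells. The log2 ratio of Scarb1 to Scarb2 was -3.73 ± 0.84 (SD, n = 3) and -4.87 ± 0.17 (SD, n = 3). Neither ratio overlapped between the populations, and the exact two-sided permutation p was 0.1 for each. The differences rested in part on replicate 1 of CX3CR1-, which had the highest Scarb1. Without it the difference between the populations (CX3CR1- minus CX3CR1+) went from -2.04 to -1.34 for Cd36 to Scarb1 and from 1.15 to 0.67 for Scarb1 to Scarb2, and the latter was 0.53 after quantile normalization.

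Of 21 genes of lipoprotein and lipid handling, 6 were called higher and 6 lower in CX3CR1- cells, against 12.2% and 8.15% of all tested genes. The median log2 fold change of the 21 was -0.22. Apoe, Abca1 and Npc1, which carry, export and release cholesterol, had log2 fold changes of -3.15, -2.46 and -1.73. In the other direction, Lpl, the lipase that frees fatty acids from lipoproteins, was at 1637, 2537 and 995 against 186, 173 and 204 (log2 fold change 3.10). Fabp4, a fatty acid carrier, was at 361, 359 and 236 against 11.6, 4.72 and 2.38. The list thus held genes called in both directions. Pdzk1, the adaptor protein that binds SCARB1 in liver and gut, was at 198, 168 and 63.2 in CX3CR1- and at 1.56, 0 and 0 in CX3CR1+ libraries. Replicate 1 of CX3CR1- had the highest value of both Pdzk1 and Scarb1.

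The enterocyte list is given beside the class B members, since enterocytes are known to express Cd36 and Scarb1. All 10 enterocyte genes were called higher in CX3CR1- cells, against 12.2% of all tested genes. Their sums were 32238, 28449 and 17519 against 43.8 at most in a CX3CR1+ library. Fabp1, Apoa4, Alpi, Lct, Krt20 and Epcam were at or under 3 reads in every CX3CR1+ library. Cd36 was lower in the population with the higher enterocyte sums, and Scarb1 was highest in the library with the highest sum. The part of enterocytes in these values was not tested.

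Olr1 (chr6:129485244-129507165, minus strand) encodes LOX-1, a lectin-like receptor for oxidized low-density lipoprotein. It was at 247, 351 and 52.4 in CX3CR1- and at 98.1, 66.0 and 122 in CX3CR1+ libraries. Replicates 1 and 2 of CX3CR1- were the highest of all 6 libraries and replicate 3 was the lowest, so that the populations overlapped. The log2 fold change was 0.84 with a 95% interval of -0.49 to 2.17 (limma adjusted p = 0.357), and the exact two-sided permutation p was 0.4. Without replicate 3 of CX3CR1- it was 1.66 with an adjusted p of 0.00865 (limma), which passed the threshold. The monocyte list was lowest of the CX3CR1- libraries in replicate 3, with sums of 13908, 19999 and 8577. In CX3CR1+ libraries the sums were 2566 to 2666. Of its 7 tested genes, 5 were called higher, against 12.2% of all tested genes. Fn1 alone was at 10317, 15263 and 5930 in CX3CR1-. Ccr2, Ly6c2, Plac8 and F13a1 were also lowest in replicate 3, whereas Vcan and Chil3 were highest there. F13a1 was lower in every CX3CR1- library than in any CX3CR1+ library. The part of monocytes in the Olr1 level was not tested.

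Cd5l (chr3:87357881-87371073, plus strand) encodes a secreted protein with scavenger receptor cysteine-rich domains that is made by macrophages of liver, spleen and body cavities. It was at 0, 0 and 2.99 in CX3CR1- and at 2.31, 3.28 and 0 in CX3CR1+ libraries, which is at most 5 reads. No difference was detectable at this depth, and Cd5l was not tested.

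The levels of the members were compared with each other per kb of their longest coding transcript in GENCODE release M21. In CX3CR1+ cells Mrc1 led with 2881 ± 74.9 per kb (SD, n = 3), followed by Cd36 with 707 ± 49.7, Cd163 with 659 ± 45.1, Msr1 with 522 ± 32.0 and Scarb2 with 374 ± 24.5. Cd36 and Cd163 overlapped in this order. Olr1 (26.7 ± 7.88), Scarb1 (23.8 ± 1.96) and Colec12 (7.91 ± 4.85) were far lower, and Olr1 overlapped with Scarb1. In CX3CR1- cells Mrc1 also led, with 639.8 ± 81.5 per kb (SD, n = 3). Cd36 (333 ± 101) and Scarb2 (319 ± 30.3) came next and overlapped, and Cd163 (187 ± 27.8) followed. Olr1 (60.7 ± 42.5), Scarb1 (51.6 ± 35.7), Msr1 (37.1 ± 27.3) and Colec12 (20.04 ± 8.45) came after them, and each of these overlapped with the next one. Msr1 thus stood beside the abundant members in CX3CR1+ cells and among the scarce ones in CX3CR1- cells, whereas Scarb2 followed Msr1 in CX3CR1+ cells and preceded Cd163 in CX3CR1- cells. The place of Olr1 and Msr1 depended on the transcript length. With the median coding length in its stead Msr1 was second in CX3CR1+ cells (1333 ± 81.7 per kb) and Olr1 was second in CX3CR1- cells (463 ± 324 per kb). Olr1 was then at 528, 750 and 112 per kb in CX3CR1- libraries, which overlapped with Mrc1 (546 to 687), Cd36 (323 to 564), Scarb2 and Cd163.

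The summed level of the 10 members was 1649 ± 129 per kb (SD, n = 3) in CX3CR1- cells against 5209 ± 194 per kb (SD, n = 3) in CX3CR1+ cells, a 3.16-fold difference (exact two-sided permutation p = 0.1). Mrc1 made up 38.7 ± 2.40% of this sum in CX3CR1- and 55.3 ± 0.721% in CX3CR1+ cells (SD, n = 3). The share of Msr1 was 2.22 ± 1.60% against 10.02 ± 0.377%, and that of Cd163 was 11.4 ± 1.66% against 12.7 ± 0.703%. Cd36 and Scarb2 took larger shares in CX3CR1- cells, with 19.97 ± 4.69% against 13.6 ± 0.455% and 19.5 ± 3.21% against 7.18 ± 0.225%. The shares of Mrc1, Msr1, Cd36 and Scarb2 did not overlap between the populations (exact two-sided permutation p = 0.1 for each), and that of Cd163 overlapped (exact p = 0.3). The shares depended on the transcript length. With the median coding length, Mrc1 made up 29.0 ± 4.99% against 45.0 ± 0.250%, Msr1 4.46 ± 3.74% against 20.8 ± 0.784% and Olr1 19.9 ± 12.4% against 3.20 ± 1.04% (SD, n = 3), whereas with the longest transcript Olr1 made up 3.68 ± 2.48% against 0.517 ± 0.170%. Among the tested members, 7 of 8 had the larger coefficient of variation in CX3CR1- libraries, Colec12 being the exception. The share of all tested genes was not computed for this measure, so the count is not a result about the members. By another measure, the median SD of the log2 values over all tested genes was 0.469 in CX3CR1- and 0.296 in CX3CR1+ libraries.

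**Figure D3:**
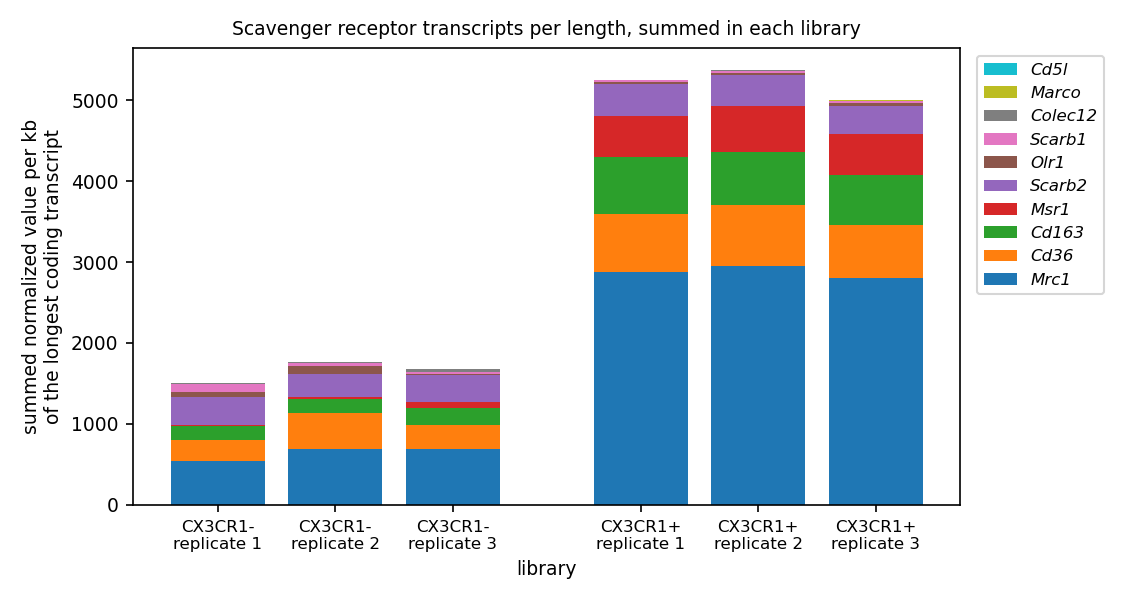
Normalized value per kb of the longest coding transcript, stacked for the 10 members in each of the 6 libraries. The sum was 1649 on average in CX3CR1- and 5209 in CX3CR1+ libraries, Mrc1 was the largest part in each library, and the Msr1 part was thin in all 3 CX3CR1- libraries.

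The members were also set against 11 macrophage core genes (the list above without Cx3cr1) in the same library, a comparison chosen after the values had been seen. The mean log2 level of these genes was subtracted from that of each member. By this measure, CX3CR1- minus CX3CR1+, Msr1 had a difference of -1.69 on the log2 scale, beyond that of the macrophage genes. Mrc1 and Cd163 had differences of 0.19 and 0.55, close to the macrophage genes or slightly above them. Cd36 had one of 1.24, Scarb2 of 2.14, Olr1 of 3.21, Scarb1 of 3.27 and Colec12 of 3.78. None of these 8 differences overlapped between the populations, and the exact two-sided permutation p was 0.1 for each. The core genes were themselves lower in CX3CR1- cells, with a median log2 fold change of -2.41 over the 12. The subtraction therefore raises every member by the same amount, and a gene with equal values in both populations would have a positive difference too. The lack of overlap of the positive differences is thus not a result about those members, and the values of Olr1 itself overlapped. The signs of the 8 differences held under quantile normalization, pseudocounts of 0.5 and 10 and leaving out each library.

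The genes most like a member were taken as the 3 with the highest Pearson r over the 6 libraries on the log2 scale, given for the 4 members with the highest mean. With 2 separate populations such values are high for any gene that differs between them, and they are a description only. For Mrc1 they were Klf6, Cttnbp2nl and Csf1r, all with r of 0.999 or more. For Cd163 they were Ube2f, Ms4a7 and Fcgr4 (r = 0.999 for each). For Cd36 they were Atf6, Ascc3 and Bcl10 (r = 0.996 to 0.999), and for Scarb2 Mgme1, Glmp and A230050P20Rik (r = 0.984 to 0.988).

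Transcription factors of macrophages and of lipid metabolism were described from a list of 17, all tested. Of these, 7 were called lower and 1 higher in CX3CR1- cells, against 8.15% and 12.2% of all tested genes. The median log2 fold change of the 17 was -0.67. Maf, a transcription factor of macrophages, had a log2 fold change of -2.13, and Nfe2l2, a regulator of the response to oxidative stress, had one of -1.61. Spi1, which encodes PU.1, was at 541, 569 and 468 against 1175, 1391 and 1162. Irf4, a factor of dendritic cells and alternatively activated macrophages, was the gene called higher (log2 fold change 1.64). Pparg, which is known to activate Cd36, was at 55.8, 74.0 and 39.2 against 65.4, 87.6 and 58.6 and overlapped between the populations.

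Other receptors of the scavenger and mannose receptor families were described from a list of 24 genes, of which 19 were in the table and 17 were tested. In CX3CR1- cells 5 of them were called higher and 3 lower, against 12.2% and 8.15% of all tested genes, and 9 did not pass the test. The median log2 fold change of the 17 was 1.06. Stab1, the endocytic receptor stabilin-1, was at 247, 649 and 735 against 3607, 3332 and 2854 (log2 fold change -2.73). Cxcl16, a scavenger receptor for oxidized lipoprotein that is also a chemokine, was at 658, 611 and 1031 against 3602, 4605 and 5149 (log2 fold change -2.56). Cd68, a lysosomal glycoprotein of macrophages, had a log2 fold change of -1.45. All 3 had the direction of Mrc1 and Msr1.

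The higher receptors included the relatives of Mrc1 in the mannose receptor family, Ly75, Mrc2 and Pla2r1. Ly75, the dendritic cell receptor CD205, was at 89.5, 167 and 138 in CX3CR1- and at 1.07, 0 and 4.90 in CX3CR1+ libraries. Mrc2, which takes up collagen, was at 91.6, 70.4 and 130 against 16.7, 4.97 and 8.98 (log2 fold change 3.23), and Pla2r1 was at 99.9, 47.3 and 56.2 against 11.1, 17.0 and 24.1 (log2 fold change 1.89). The family of Mrc1 thus held 3 genes that were called in the opposite direction to Mrc1. Dmbt1 and Ssc5d, which encode secreted proteins with scavenger receptor cysteine-rich domains, had log2 fold changes of 5.12 and 3.53. Dmbt1 was uneven within both populations, at 99.5, 731 and 241 against 0.93, 41.2 and 4.26 (standard error of the log2 fold change 1.03). Dmbt1 is known from gut epithelium, and Mrc2 from fibroblasts, and the part of the enterocyte and fibroblast markers in these values was not tested.

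**Figure D4:**
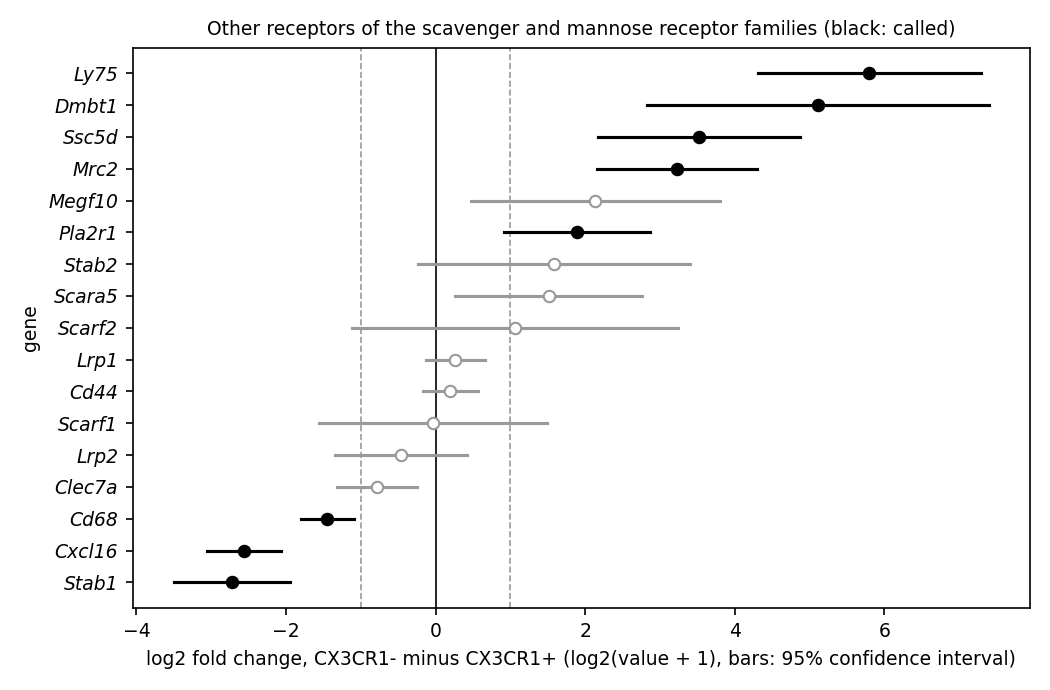
Log2 fold change of 17 other receptors of the scavenger and mannose receptor families, CX3CR1- minus CX3CR1+, with its 95% confidence interval from limma on the log2(value + 1) scale. Stab1, Cxcl16 and Cd68 were called lower, Pla2r1, Mrc2, Ssc5d, Dmbt1 and Ly75 were called higher (black), and the other 9 did not pass the test (grey).

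Genes often seen together with Cd163 and Mrc1 in resident macrophages were described from a further list. Of its 17 tested genes, 6 were called lower and 8 higher in CX3CR1- cells, against 8.15% and 12.2% of all tested genes. The median log2 fold change of the list was 0.60, and most of its called genes did not have the direction of Mrc1 and Cd163. Selenop, Pf4 and Igf1, which encode a selenium carrier, a platelet-type chemokine and a growth factor, had log2 fold changes of -1.58, -2.55 and -1.66. Retnla, a gene of alternatively activated macrophages, was at 6920, 9603 and 4955 against 54.6, 39.4 and 12.7 (log2 fold change 7.78). Timd4, a receptor for phosphatidylserine, was at 363, 629 and 809.7 against 160.5, 125 and 132 (log2 fold change 2.04). Fcna, a ficolin, was at 46.0, 93.7 and 53.3 in CX3CR1- libraries and at or under 3 reads in every CX3CR1+ library.

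The further marker lists gave the following sums of normalized values, and 12.2% of all tested genes were called higher. Of 7 tested genes of serosal cavity macrophages, 4 were called higher in CX3CR1- cells, with sums of 527 to 692 against 246 to 262, and Gata6 was at or under 3 reads in every CX3CR1+ library. Of 6 genes of B and plasma cells, 5 were called higher, with sums of 1440 to 3746 against 58.6 to 89.3. Of 7 tested genes of enteric glia and neurons, 3 were called higher, with sums of 168 to 528 against 93.6 to 105. Smooth muscle genes, the tissue around the sorted cells, had 1 of 7 genes called higher, near the 12.2% of all tested genes. Their sums were 997 to 2772 against 2000 to 2795. Adipocyte, T and NK cell, and platelet and erythroid lists had 3 or fewer tested genes each. The part of these cells in the member levels was not tested.

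**Figure D5:**
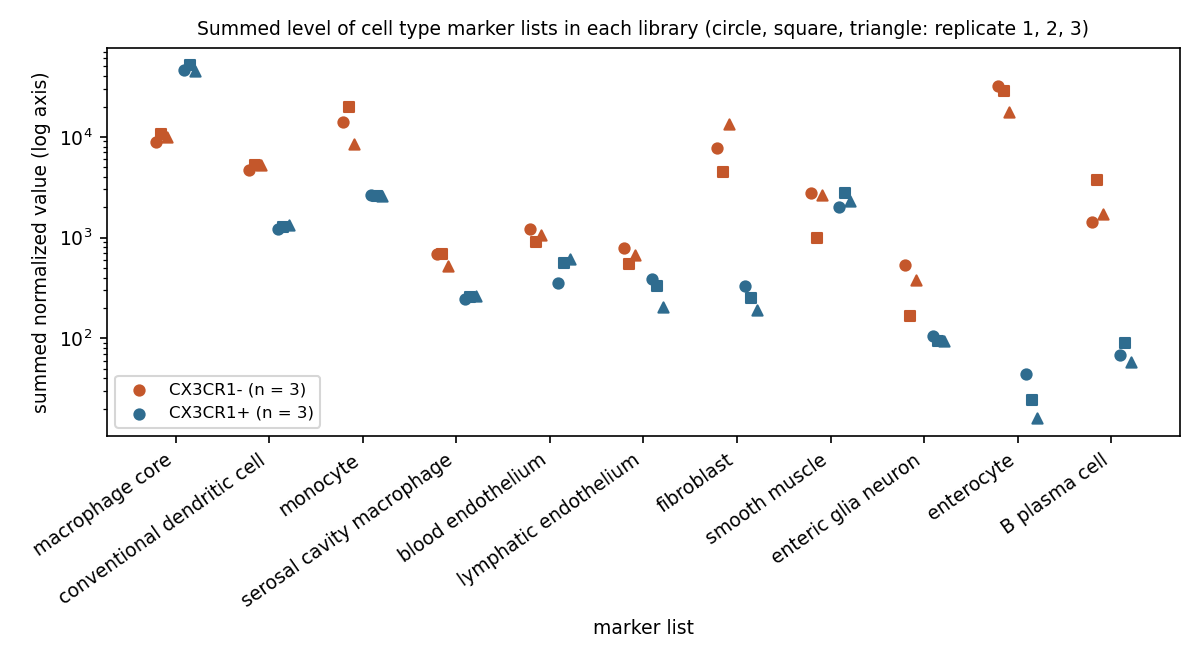
Summed normalized value of 11 cell type marker lists in each library, on a log axis, with CX3CR1- libraries in orange and CX3CR1+ libraries in blue. The macrophage core sum was lower in every CX3CR1- library, the enterocyte sum was 17519 or more in CX3CR1- and 43.8 or less in CX3CR1+ libraries, and the smooth muscle sums overlapped.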

How the data were processed

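Bulk RNA-seq libraries of sorted ME cells, 3 CX3CR1- and 3 CX3CR1+, were grouped by their titles. Per the study's methods and the submitters' processing notes, the authors pseudoaligned the reads to the mouse transcriptome (mm10) with kallisto, summed the estimates over the transcripts of a gene and used DESeq2 for normalization. What they deposited is a normalized signal per gene and library, in which whole reads could not be recovered. Only 47.6 to 49.6% of the nonzero values per library were multiples of the smallest value step (tolerance 0.05), and no count test was run. That step gave the approximate reads per library and the value of 3 reads, which limits the precision of low genes. No column was left unmapped (0 columns).

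The members and gene lists were chosen with earlier results of these data known. Populations were compared with limma 3.58.1 (R 4.3.3) on log2(value + 1), two-sided and with a trend of the variance prior on intensity. Its p-values were adjusted by Benjamini-Hochberg over the 17812 genes whose mean reached 10. Beside it stand exact two-sided permutation tests (scipy 1.17.1). The test was checked on simulated data. Of 23 symbols listed more than once, none was a member. Named were all members, the 5 called genes with the largest change in each direction among other scavenger receptors, of each connected list the 3 called genes lowest in adjusted p for either direction, and the 3 marker genes of each list with the highest mean and those at or under 3 reads. Not every gene that this rule takes is reported here. Hmox1, Adam17, Csnk2b, Lrp1, Spi1, Pparg, C1qa, Cx3cr1, Ly6c2, Plac8, Vcan and Chil3 were named outside this rule, after their values were seen. Positions, lengths and shared 31-base words came from GENCODE release M21 (GRCm38). Alternatives were pseudocounts of 0.5 and 10, other filters on low values, other scalings, no trend, library weights and leaving out each library. The median transcript length, a block of adjacent library numbers and the comparison with macrophage core genes were chosen later, with the values seen. The plots were drawn with matplotlib 3.10.9.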

Additional observations from a re-analysis of the deposited data

How the results depend on the processing

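Mrc1, Cd163 and Msr1 kept their direction and call under all 16 alternatives, and none of Scarb1's or Scarb2's alternatives passed the test. Of the 10 members, 5 were called as reported, against 3 after quantile normalization, and 3 to 5 with 1 library left out (3 without replicate 1 of CX3CR1-). The log2 fold change of Cd36 fell short of the fold threshold after quantile normalization (-0.74) and after scaling to an equal sum without mitochondrial genes (-0.95), and ranged from -1.36 to -0.96 with 1 library left out. That of Scarb2 was 0.17 after quantile normalization, and Colec12 missed the adjusted p after quantile normalization (1.24), without the trend (1.41) and with library weights (1.32), with a range from 1.09 to 1.87 over the left-out libraries. Olr1 ranged from 0.30 to 1.66 over the left-out libraries. The summed level per kb differed by -1.66 on the log2 scale, by -1.36 after quantile normalization and by -1.53 with the median transcript length. Over all genes, 3628 were called (2177 higher, 1451 lower), against 2413 with a mean of at least 50, and 2742 to 3862 with 1 library left out. The split was 1761 higher and 1707 lower after quantile normalization, and 2487 higher and 1116 lower with an equal sum. The median over all genes was -0.15 and 0.16 on the log2 scale under these scalings. The causes were not tested. Depth limits Marco and Cd5l, since 3 reads are 1.39 to 5.36 normalized units. The labels give no pairing, and the replicate block of adjacent library numbers, added after the values were seen, gave 3610 called genes and the same 5 members. The deviations of adjacent libraries from their population means correlated by 0.104, 0.0380 and 0.0142 across genes, and those of the other library pairs by -0.0830 to 0.0404. With 3 libraries per population such values cannot decide whether adjacent libraries came from the same pool. The numbers were not taken as pairs in the reported fit.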
